A study of Mus musculus with 12 samples.

Results

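The 9 genes described here encode carriers that move amino acids across the hepatocyte surface, and they were taken by name from count tables of 22609 genes. They are Slc7a5 with its partner chain Slc3a2, Slc43a1, Slc1a5, Slc7a1, Slc7a2, Slc38a2, Slc38a3 and Slc38a4. All 9 were found in the tables and all 9 passed the filter on low counts. RNA came from whole liver of 12 untreated adult mice, 3 of each of 4 genotypes. AEG1_MYC mice carried both an Alb/AEG-1 and an Alb/c-Myc transgene, MYC mice the c-Myc transgene only, AEG1 mice the AEG-1 transgene only, and wild-type (WT) mice neither. The albumin promoter drives both transgenes in hepatocytes, and parents of the cross were heterozygous for 1 transgene each. The labels give no sex, litter or batch and no age beyond adult, so the p-values measure the spread between these mice, whatever its source.

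Amino acid carriers work as exchangers, uniporters or sodium-coupled importers, and a liver cell uses them to take up glutamine, alanine and arginine from portal blood and to trade amino acids with it. Normal hepatocytes rely on the Slc38 carriers and on Slc7a2, whereas Slc7a5 and Slc1a5 are low in adult liver and are known for high levels in dividing cells and in many tumours, human liver tumours among them. c-Myc, which turns on genes of cell growth, binds the E-box CACGTG together with Max, and AEG-1 is the protein of Mtdh.

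Each library held 21931197 to 40552316 reads in genes. Levels are given as CPM, counts of reads brought to the same scaled total in each library, and differences as log2 fold changes ± SE from edgeR's quasi-likelihood test over 13684 genes. The threshold for a call was an adjusted p under 0.05. Myc transcripts reached 73.0, 165 and 58.4 CPM in AEG1_MYC livers, 23.4, 30.5 and 53.8 CPM in MYC, 3.93, 3.54 and 4.59 CPM in AEG1, and 4.73, 2.79 and 2.26 CPM in WT livers, so every c-Myc carrier lay above every other mouse. Mtdh stood at 89.0 to 112 CPM in all 12 libraries and does not check the AEG-1 labels. AEG1_MYC replicate 2 stood apart from the other libraries: its summed periportal markers came to 896 CPM, against 7657 to 12645 CPM in the 9 livers of the other genotypes, and its 8 summed hepatocyte genes to 42422 CPM, against 75149 to 121794 CPM. On the sum of hepatocyte genes AEG1_MYC replicate 1, at 64181 CPM, also lay below those 9 livers. The summed periportal markers of AEG1_MYC replicates 1 and 3, at 10612 and 10144.5 CPM, lay within the range of those 9 livers. Differences of AEG1_MYC livers are therefore also given without replicate 2 where a member's value moved with it. In the fits without it edgeR again called 0 of the 9 members in each comparison.

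Shown first are the 250 bases before the RefSeq start of Slc43a1 (GRCm38.p6, chr2:84840073-84840322, plus strand) and of Slc3a2 (chr19:8713898-8714147, minus strand), the first as the only member window searched that holds the c-Myc motif and the second, for comparison, as that of the heavy chain that partners Slc7a5. The pair was chosen after values were seen. Both windows lie within the gene positions given below, so each gene has an annotated start further upstream that was not searched. Capitals mark CACGTG, which lies 64 to 59 bases before the Slc43a1 start.
Slc43a1: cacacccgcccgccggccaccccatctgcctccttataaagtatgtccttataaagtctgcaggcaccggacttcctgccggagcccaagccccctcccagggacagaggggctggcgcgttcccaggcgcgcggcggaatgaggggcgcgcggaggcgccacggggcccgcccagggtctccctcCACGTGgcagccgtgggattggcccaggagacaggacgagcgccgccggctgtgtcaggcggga
Slc3a2: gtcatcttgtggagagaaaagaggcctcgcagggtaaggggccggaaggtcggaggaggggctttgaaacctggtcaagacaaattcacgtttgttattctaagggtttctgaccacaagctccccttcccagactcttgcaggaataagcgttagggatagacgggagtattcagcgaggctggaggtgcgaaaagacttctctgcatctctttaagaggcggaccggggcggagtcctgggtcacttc
CACGTG reads the same on both strands. It was found in 1 of the 8 windows of the 5 members with a promoter entry, and in 6.02% of 32851 such windows of the mouse genome. The amino acid response motif TGATGNAA, searched on both strands, was found in 0 of those 8 member windows and in 3.45% of all windows. The 5 are Slc3a2, Slc7a1, Slc38a2, Slc38a4 and Slc43a1, and the windows of Slc7a5, Slc1a5, Slc7a2 and Slc38a3 were not searched. These matches describe letters only.

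Shown next are the alternative coding exons of Slc7a2, because transcripts of this gene carry one or the other and the counts per gene add both together. The exon of transcript Slc7a2-202 lies at chr8:40908056-40908195 and that of Slc7a2-201 at chr8:40908398-40908534 (GRCm38, plus strand). Capitals mark the 84 bases that are identical in an alignment of the pair, which is 61.3% of the shorter exon.
Slc7a2-202: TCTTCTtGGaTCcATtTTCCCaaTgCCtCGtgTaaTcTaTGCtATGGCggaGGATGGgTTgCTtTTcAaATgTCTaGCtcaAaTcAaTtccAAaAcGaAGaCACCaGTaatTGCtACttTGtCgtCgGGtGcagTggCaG
Slc7a2-201: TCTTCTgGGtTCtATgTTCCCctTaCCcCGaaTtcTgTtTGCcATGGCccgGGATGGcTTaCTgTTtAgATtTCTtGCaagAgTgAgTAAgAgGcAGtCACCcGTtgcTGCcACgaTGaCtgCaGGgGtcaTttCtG
In mouse, the protein with one of these exons is known as a low-affinity arginine carrier of liver and the protein with the other as a high-affinity carrier of activated macrophages. A Slc7a2 value below is the sum over both.

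In WT livers the 9 transcripts spanned a wide range once counts were divided by exon length. Slc38a4 had the highest level with 376 ± 74.0 CPM per kb of exon and Slc38a3 stood at 370 ± 95.6 CPM per kb, and their 3 mice each overlapped (SD, n = 3, for all levels per kb). Slc7a2 stood at 66.9 ± 22.5, Slc38a2 at 18.9 ± 4.12 and Slc3a2 at 13.3 ± 2.04 CPM per kb. These are the carriers of glutamine, alanine and arginine that hepatocytes are known for, and the shared heavy chain. Slc43a1 at 0.924 ± 0.292 and Slc7a5 at 0.683 ± 0.225 CPM per kb overlapped each other. Slc1a5 at 0.301 ± 0.115 and Slc7a1 at 0.0969 ± 0.0182 CPM per kb had the lowest levels. Apart from the Slc38a4 and Slc38a3 pair and the Slc43a1 and Slc7a5 pair, the 3 mice of each gene did not overlap those of its neighbour in this order.

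**Figure D1:**
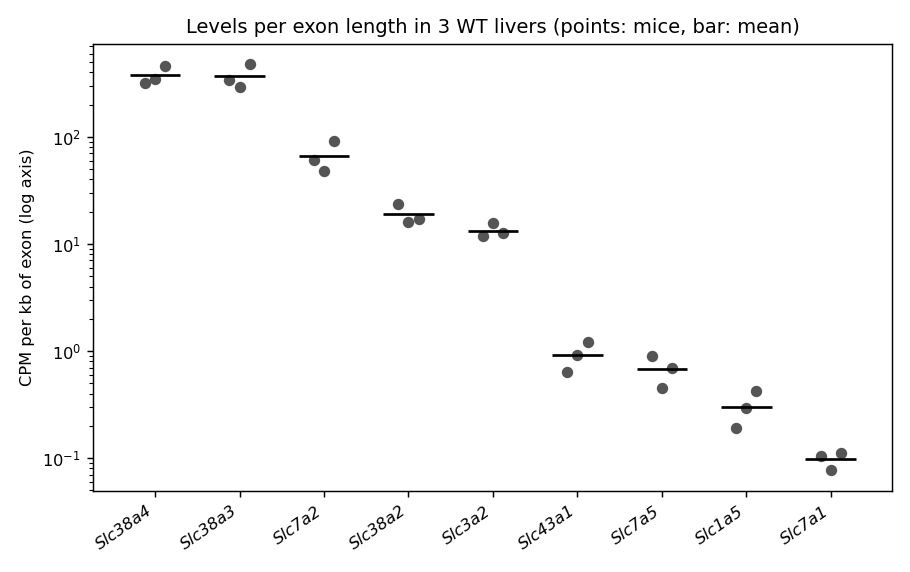
CPM per kb of exon (log axis) of the 9 transporter genes in 3 WT livers, with a point for each mouse and a bar at the mean. Slc38a4 at 376 and Slc38a3 at 370 CPM per kb share the top of the scale, and Slc7a1 at 0.0969 CPM per kb has the lowest level.

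Slc38a3, Slc38a4 and Slc7a2 together made up 90.8% to 96.5% of the summed CPM of the 9 genes in each library. That sum was 5195, 2337 and 5851 CPM in AEG1_MYC, 3028, 2599 and 4302 CPM in MYC, 3350, 2694 and 6116 CPM in AEG1, and 3963, 3681 and 5527 CPM in WT livers. The range within each genotype exceeded the range of the 4 genotype means. In the AEG1 group, replicate 3 had the highest level of each of the 9 members. Without it edgeR again called 0 members in each comparison. Members with an unadjusted p under 0.05 then numbered 1 instead of 0 in AEG1 against WT. They numbered 4 instead of 3 in AEG1_MYC against AEG1 and against MYC. The share of all genes under 0.05 was not taken for that fit.

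Slc7a5, Slc1a5 and Slc43a1, carriers of neutral amino acids, stood higher in all 3 AEG1_MYC livers than in all 9 livers of the other genotypes. Groups that do not overlap in this direction were found for 3.04% of the 13684 genes. edgeR called 0 of the 9 members in AEG1_MYC against WT, where it called 0.263% of all genes, and 3 members had an unadjusted p under 0.05, as did 17.2% of all genes. DESeq2, run as an alternative, called 2 of the 9, Slc7a5 and Slc1a5, beside 4.37% of the genes it tested. The other 6 members overlapped between AEG1_MYC and WT livers, where 19.5% of all genes did not overlap.

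**Figure D2:**
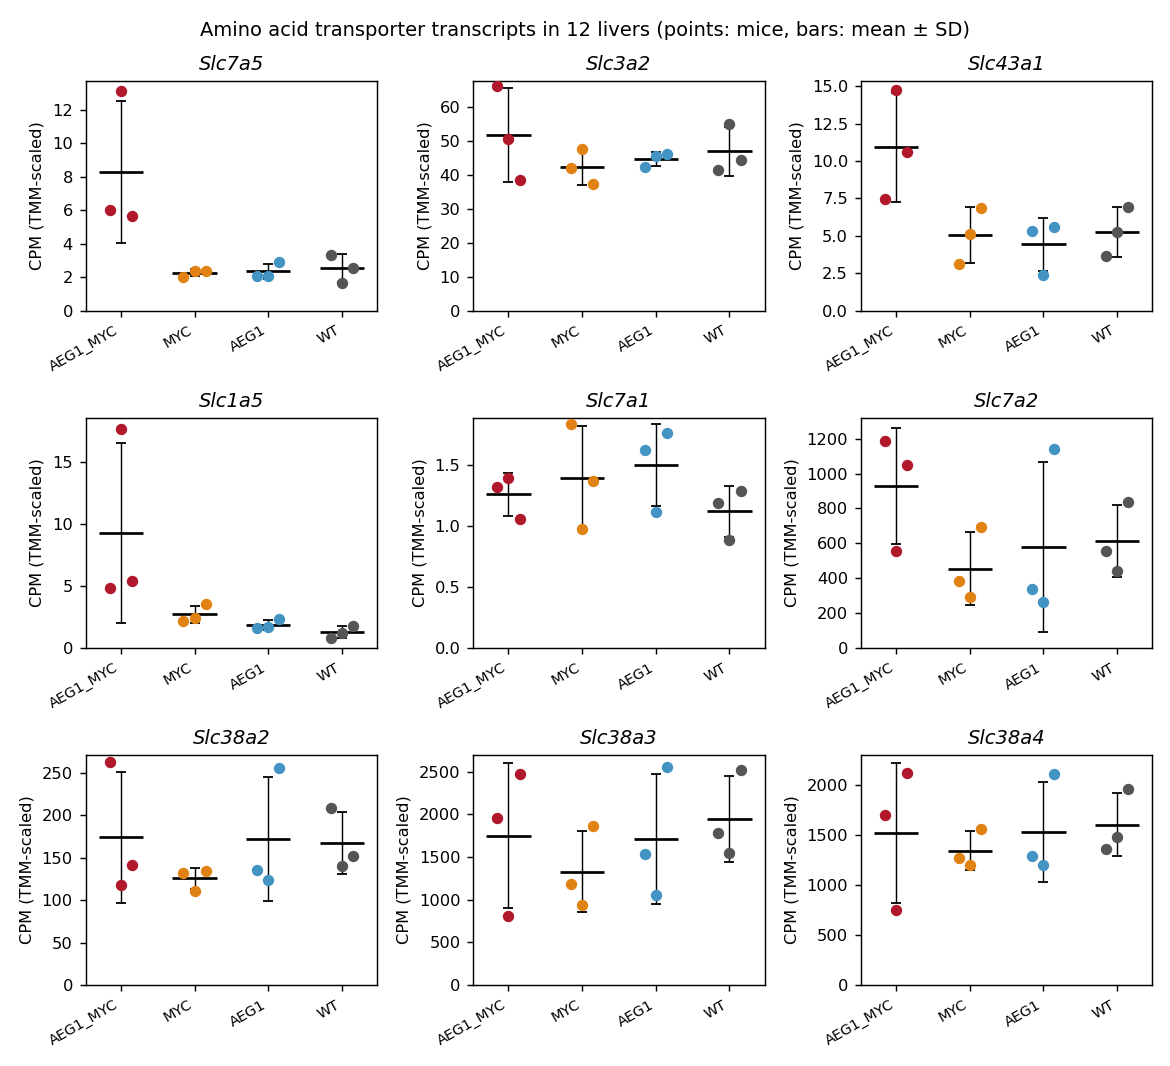
TMM-scaled CPM of each transporter gene (linear axis from 0), with a point for each of 3 mice per genotype and a bar at the mean ± SD, AEG1_MYC at the left and WT at the right. In the panels of Slc7a5, Slc43a1 and Slc1a5 every AEG1_MYC point lies above every other point, and in the other 6 panels the points overlap.

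Slc7a5 encodes the large neutral amino acid exchanger LAT1, which brings in leucine and other essential amino acids in trade for glutamine (gene at chr8:121881150-121907694, minus strand, GRCm38). It stood at 6.05, 13.2 and 5.65 CPM in AEG1_MYC livers, 2.04, 2.37 and 2.40 CPM in MYC, 2.09, 2.09 and 2.89 CPM in AEG1, and 3.36, 1.68 and 2.56 CPM in WT livers. The lowest AEG1_MYC liver lay above the highest of the other 9, and the MYC, AEG1 and WT livers overlapped one another. Gm20388, an annotated gene of the other strand, overlaps Slc7a5, and since the use of strand in counting is not given, their reads cannot be told apart. The log2 fold change in AEG1_MYC was 1.70 ± 0.36 against WT (95% interval 0.92 to 2.49, edgeR adjusted p = 0.0921), 1.87 ± 0.36 against MYC (adjusted p = 0.0767) and, with AEG1 livers as the base, 1.81 ± 0.36 (adjusted p = 0.0724). Against WT it was -0.16 ± 0.35 in MYC and -0.10 ± 0.35 in AEG1 livers. None of these passed the threshold, and the value for AEG1_MYC against WT was 1.20 (adjusted p = 0.180) without AEG1_MYC replicate 2, the liver with 13.2 CPM, and 1.93 (adjusted p = 0.0224) without replicate 3. Without replicate 2, AEG1_MYC stood 1.36 above MYC (adjusted p = 0.140) and 1.30 above AEG1 (adjusted p = 0.134). Without replicate 3, it stood 2.09 above MYC (adjusted p = 0.0215) and 2.04 above AEG1 (adjusted p = 0.0196). The fit without replicate 3 called 687 of 13891 genes against WT, 450 against MYC and 630 against AEG1.

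Slc1a5 encodes ASCT2, a sodium-dependent exchanger of neutral amino acids that takes up glutamine in many dividing cells (chr7:16781340-16798274, plus strand). It stood at 4.79, 17.7 and 5.36 CPM in AEG1_MYC livers, 2.18, 2.40 and 3.51 CPM in MYC, 1.56, 1.70 and 2.28 CPM in AEG1, and 0.793, 1.23 and 1.75 CPM in WT livers. AEG1_MYC livers were highest and the MYC livers lay above the WT livers, while AEG1 livers overlapped both MYC and WT livers. The counts behind the WT values were 26, 32 and 41 reads, so the WT level is the less precise one. The log2 fold change was 2.89 ± 0.52 in AEG1_MYC against WT (95% interval 1.74 to 4.04, adjusted p = 0.0564), 1.11 ± 0.51 in MYC against WT (adjusted p = 0.999) and 0.57 ± 0.51 in AEG1 against WT (adjusted p = 0.9997). AEG1_MYC stood 1.78 ± 0.49 above MYC (adjusted p = 0.177) and 2.32 ± 0.50 above AEG1 (adjusted p = 0.0810). Without AEG1_MYC replicate 2, the liver with 17.7 CPM, AEG1_MYC stood 0.91 above MYC (adjusted p = 0.440) and 1.45 above AEG1 (adjusted p = 0.155). The value against WT was then 2.02 (adjusted p = 0.0599), and it passed the threshold without AEG1_MYC replicate 1 (3.23, adjusted p = 0.0397) or replicate 3 (3.19, adjusted p = 0.0133). The difference between AEG1_MYC and AEG1 passed without replicate 3 (2.62, adjusted p = 0.0245). Against WT edgeR called 40 of 13912 genes without replicate 1 and 687 of 13891 without replicate 3. Against AEG1 it called 630 without replicate 3.

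Slc43a1 encodes LAT3, a uniporter of branched-chain and other large neutral amino acids, and of the 5 members with a promoter entry it is the one whose window holds the E-box printed above (chr2:84838850-84863594, plus strand). Its level was 7.47, 14.7 and 10.6 CPM in AEG1_MYC livers, 3.14, 5.13 and 6.88 CPM in MYC, 5.33, 2.38 and 5.57 CPM in AEG1, and 3.63, 5.24 and 6.96 CPM in WT livers. The AEG1_MYC livers lay above the rest by a narrow gap, 7.47 CPM in the lowest against 6.96 CPM in the highest WT liver. The log2 fold change was 1.05 ± 0.40 in AEG1_MYC against WT (95% interval 0.17 to 1.93, adjusted p = 0.219), and it was -0.06 ± 0.40 in MYC and -0.24 ± 0.40 in AEG1 livers. AEG1_MYC stood 1.11 ± 0.40 above MYC (adjusted p = 0.245) and 1.29 ± 0.40 above AEG1 (adjusted p = 0.160). Without AEG1_MYC replicate 2 the value was 0.78 against WT (adjusted p = 0.494), 0.83 against MYC (adjusted p = 0.509) and 1.01 with AEG1 livers as the base (adjusted p = 0.399).

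The heavy chain did not stand apart with its partner. Slc3a2 encodes CD98, which is joined to Slc7a5 and other light chains and carries them to the cell surface (chr19:8706882-8723369, minus strand). It stood at 66.3, 50.5 and 38.6 CPM in AEG1_MYC livers, 42.1, 47.6 and 37.2 CPM in MYC, 42.2, 45.6 and 46.1 CPM in AEG1, and 41.5, 55.1 and 44.3 CPM in WT livers. The groups overlapped, with a log2 fold change of 0.14 ± 0.18 in AEG1_MYC against WT (95% interval -0.26 to 0.54, adjusted p = 0.714). The ratio of Slc3a2 to Slc7a5 per kb of exon was 11.5, 4.03 and 7.18 in AEG1_MYC livers, against 16.3 to 21.7 in MYC, 16.8 to 22.9 in AEG1, and 13.0 to 34.4 in WT livers. Heavy-chain transcript thus stayed in excess of Slc7a5 in every library, and the 3 AEG1_MYC ratios were the 3 lowest of 12. Other light chains of CD98 that were tested are Slc7a6 (0.39 ± 0.37, adjusted p = 0.605), Slc7a7 (-0.43 ± 0.45, adjusted p = 0.638) and Slc7a8 (-0.31 ± 0.38, adjusted p = 0.698, all log2 fold changes of AEG1_MYC against WT), and none was called. Slc7a11, the cystine carrier, had at most 1.16 CPM in any library and was filtered out.

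The cationic carriers differed from each other in level and not beyond the replicate spread between genotypes. Slc7a1 encodes CAT1, the arginine and lysine carrier of most cells outside the liver (chr5:148327410-148399904, minus strand). Its level was 1.32, 1.39 and 1.06 CPM in AEG1_MYC, 1.83, 0.975 and 1.37 CPM in MYC, 1.62, 1.12 and 1.76 CPM in AEG1, and 1.19, 0.881 and 1.28 CPM in WT livers. All groups overlapped, and AEG1_MYC differed from WT by a log2 fold change of 0.17 ± 0.30 (95% interval -0.49 to 0.83, adjusted p = 0.794).

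Slc7a2 encodes CAT2, the cationic carrier of hepatocytes that feeds arginine to the urea cycle enzyme arginase (chr8:40862396-40922308, plus strand). It stood at 1185, 556 and 1047 CPM in AEG1_MYC livers, 385, 289.7 and 691 CPM in MYC, 339, 261 and 1142 CPM in AEG1, and 554, 440.4 and 839.9 CPM in WT livers. Within AEG1 livers alone it spanned 261 to 1142 CPM, about the range over all 12 mice. The log2 fold change was 0.60 ± 0.55 in AEG1_MYC (95% interval -0.62 to 1.83, adjusted p = 0.592), -0.43 ± 0.55 in MYC and -0.07 ± 0.55 in AEG1, each against WT. Without AEG1_MYC replicate 2 the first of these was 0.87 (adjusted p = 0.569). Gm26584, a long non-coding RNA of the other strand, overlaps Slc7a2 in the annotation, and since the use of strand in counting is not given, their reads cannot be told apart.

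Among the Slc38 carriers, Slc38a2 encodes SNAT2, a system A importer of alanine and glutamine that cells raise when amino acids run short (chr15:96687392-96699730, minus strand). It stood at 262, 118 and 142 CPM in AEG1_MYC livers, 132, 111 and 134 CPM in MYC, 136, 123 and 256 CPM in AEG1, and 209, 140.5 and 152 CPM in WT livers. The 3 MYC livers lay below the 3 WT livers, as did those of 6.09% of all genes, and the log2 fold change of MYC against WT was -0.41 ± 0.33 (95% interval -1.15 to 0.33, adjusted p = 0.999). AEG1_MYC against WT gave 0.06 ± 0.33 (95% interval -0.68 to 0.80, adjusted p = 0.939), and 0.28 without AEG1_MYC replicate 2 (adjusted p = 0.764). The highest MYC liver stood at 134 CPM and the lowest WT liver at 140.5 CPM, a gap that is narrow beside the spread within AEG1_MYC or AEG1 livers.

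Slc38a3 encodes SNAT3, the system N carrier that can move glutamine into or out of hepatocytes (chr9:107650634-107669530, minus strand). It stood at 1964, 813 and 2479 CPM in AEG1_MYC livers, 1188, 943 and 1860 CPM in MYC, 1536, 1059 and 2552 CPM in AEG1, and 1787, 1551 and 2518 CPM in WT livers. The ranges of all 4 genotypes overlapped, and the lowest and the highest of the 12 livers were both carriers of AEG-1. The log2 fold change was -0.16 ± 0.44 in AEG1_MYC (95% interval -1.12 to 0.81, adjusted p = 0.875), -0.55 ± 0.44 in MYC and -0.19 ± 0.44 in AEG1, each against WT.

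Slc38a4 encodes SNAT4, a system A carrier of liver, and in mouse it is an imprinted gene read from the paternal allele (chr15:96994820-97055956, minus strand). Its level was 1698, 753 and 2122 CPM in AEG1_MYC livers, 1272, 1198 and 1566 CPM in MYC, 1286, 1198 and 2108 CPM in AEG1, and 1364, 1485 and 1960 CPM in WT livers. All groups overlapped, with a log2 fold change of -0.07 ± 0.35 in AEG1_MYC against WT (95% interval -0.84 to 0.69, adjusted p = 0.930). Its lowest value of the 12 was in AEG1_MYC replicate 2, as was that of Slc38a3. Without that library the log2 fold change against WT was 0.19 for Slc38a3 (adjusted p = 0.869) and 0.25 for Slc38a4 (adjusted p = 0.709).

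**Figure D3:**
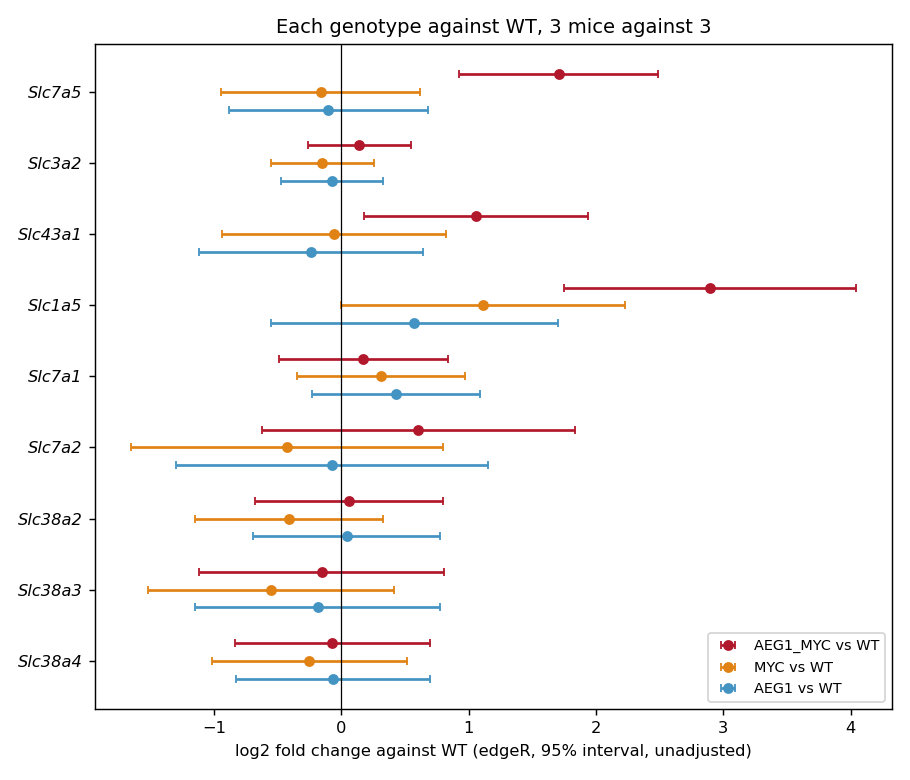
Log2 fold change of AEG1_MYC, MYC and AEG1 livers against WT (edgeR, 3 mice against 3) for the 9 transporter genes, with unadjusted 95% intervals as bars and a line at 0. The AEG1_MYC intervals of Slc7a5 (0.92 to 2.49), Slc1a5 (1.74 to 4.04) and Slc43a1 (0.17 to 1.93) lie above 0, and the adjusted p of all 3 missed the threshold.

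Of the 9 members, 7 had a positive log2 fold change in AEG1_MYC against WT, with a median of 0.17, beside a median of 0.01 over all genes. In MYC against WT 2 of 9 were positive with a median of -0.16, and in AEG1 against WT 3 of 9 with a median of -0.07. These 3 comparisons share the WT livers. edgeR called 0 of 9 members in MYC against WT and 0 of 9 in AEG1 against WT, where it called 0% of all genes in each, and 0 members had an unadjusted p under 0.05, beside 3.47% and 3.92% of all genes. DESeq2 called 0 members in either, beside 0.192% of the genes it tested in MYC and 0.0828% in AEG1 against WT. In MYC against WT the genes that edgeR did not call include Myc, although every MYC liver lay above every WT liver. DESeq2 called Myc there (3.45, adjusted p = 2.24e-11), as did edgeR without AEG1_MYC replicate 2 (3.44, adjusted p = 0.0410). An edgeR result of 0 calls in this comparison is therefore no evidence that levels were equal. Slc1a5 lay higher in MYC than in WT livers without overlap, as did 5.47% of all genes, which with Slc38a2 makes 2 of 9 members beside 11.6% of all genes in either direction, and in AEG1 against WT all 9 members overlapped, beside 10.7% of all genes that did not.

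Against the single-transgene livers, edgeR called 0 of 9 members in AEG1_MYC against MYC (0.205% of all genes called) and 0 of 9 against AEG1 (0.322% called). Slc7a5, Slc1a5 and Slc43a1 had an unadjusted p under 0.05 in both, beside 15.2% of all genes against MYC and 17.4% against AEG1. DESeq2 called 2 members against MYC (Slc7a5 and Slc1a5), beside 3.28% of the genes it tested, and 3 against AEG1 (Slc43a1 as well), beside 5%. The same 3 members did not overlap in either comparison, beside 18.5% of all genes against MYC and 17.8% against AEG1. MYC against AEG1 gave 0 calls of edgeR among the members and 0% among all genes, 0 members at an unadjusted p under 0.05 (3.68% of all genes) and 0 calls of DESeq2 (0.0717% of the genes it tested), and all 9 members overlapped, while 12.3% of all genes did not. Here too edgeR did not call Myc, which DESeq2 called (3.15, adjusted p = 4.49e-09).

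The study crossed both transgenes, so the design asks whether their joint effect differs from the sum of the separate ones. The interaction is the log2 difference of AEG1_MYC from MYC less the log2 difference of AEG1 from WT, and it was 1.97 ± 0.50 for Slc7a5 (95% interval 0.87 to 3.07, edgeR adjusted p = 0.360). It was 1.35 ± 0.56 for Slc43a1 (adjusted p = 0.505) and 1.21 ± 0.70 for Slc1a5 (adjusted p = 0.621), and positive for 8 of 9 members with a median of 0.58. edgeR called 0 of 9 members, beside 0.0219% of all genes, and 2 members (Slc7a5 and Slc43a1) had an unadjusted p under 0.05, beside 9.25% of all genes. DESeq2 called 1, Slc7a5, beside 1% of the genes it tested. Without AEG1_MYC replicate 2 the interaction was 1.47 for Slc7a5 (adjusted p = 0.399), 1.07 for Slc43a1 (adjusted p = 0.666) and 0.34 for Slc1a5 (adjusted p = 0.873).

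Averaged over both c-Myc genotypes against both others, Slc1a5 was 1.72 ± 0.36 higher (adjusted p = 0.103) and Slc7a5 0.82 ± 0.25 higher (adjusted p = 0.259), and edgeR called 0 of 9 members beside 0.11% of all genes. These 2 members had an unadjusted p under 0.05, beside 11.1% of all genes, and DESeq2 called Slc1a5 alone of the 9, beside 1.98% of the genes it tested. Without AEG1_MYC replicate 3, Slc1a5 passed here (1.87, adjusted p = 0.0463), in a fit that called 138 of 13891 genes. Without replicate 2 Slc1a5 gave 1.28 (adjusted p = 0.0678) and Slc7a5 0.57 (adjusted p = 0.350). Averaged over both AEG-1 genotypes against both others, Slc1a5 was 1.18 ± 0.35 higher (adjusted p = 0.482) and Slc7a5 0.88 ± 0.25 higher (adjusted p = 0.476). There edgeR called 0 of 9, beside 0.0512% of all genes, the same 2 genes had an unadjusted p under 0.05 (9.43% of all genes), and DESeq2 called 0, beside 0.533% of the genes it tested. Without AEG1_MYC replicate 2 these were 0.74 for Slc1a5 and 0.63 for Slc7a5 (adjusted p = 0.578 for both). No member separated the 6 carriers of either transgene from the 6 other mice without overlap, as 1.08% of all genes did for c-Myc and 0.263% for AEG-1. A joint test of any difference over the 4 genotypes gave adjusted p = 0.0554 for Slc7a5, 0.0652 for Slc1a5 and 0.310 for Slc43a1. In that test edgeR called 0 of 9 members beside 0.519% of all genes, these 3 had an unadjusted p under 0.05 (12.7% of all genes), and DESeq2 called Slc7a5 and Slc1a5, beside 5.12% of the genes it tested. Without AEG1_MYC replicate 2 the joint adjusted p was 0.150 for Slc7a5, 0.109 for Slc1a5 and 0.633 for Slc43a1. The joint test passed for Slc7a5 without AEG1_MYC replicate 3 (adjusted p = 0.0239) and for Slc1a5 without replicate 1 (0.0416) or replicate 3 (0.0246). It called 292 of 13891 genes without replicate 3 and 79 of 13912 without replicate 1.

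**Figure D4:**
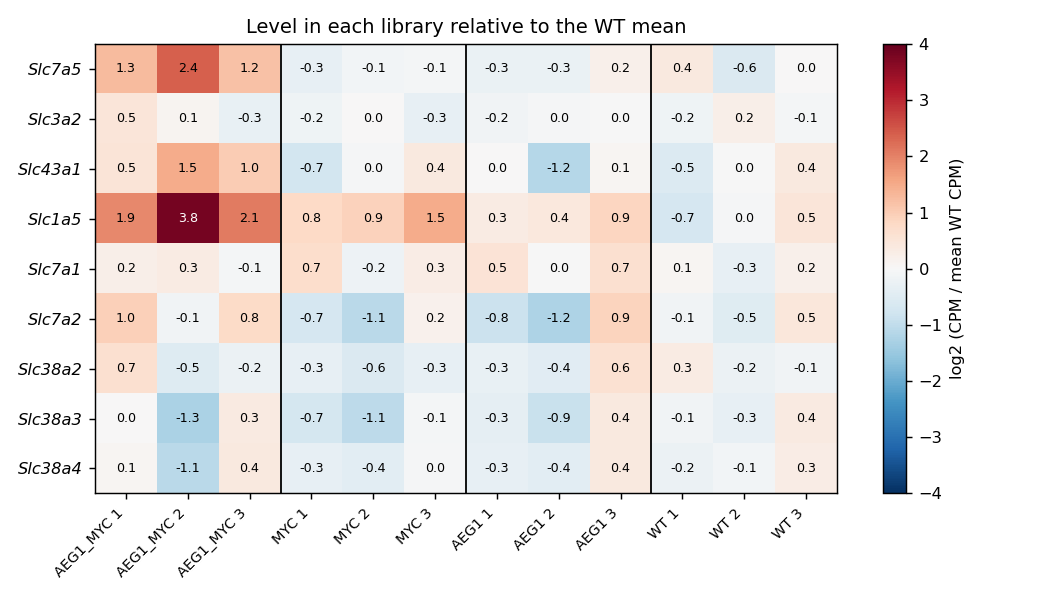
Log2 of CPM over the WT mean for each transporter gene (rows) in each of 12 libraries (columns, AEG1_MYC at the left and WT at the right), with the value in each cell. Slc1a5 reaches its highest value in AEG1_MYC replicate 2, 3.81, the library in which Slc38a3 and Slc38a4 stand at -1.26 and -1.09.

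Within the AEG1_MYC group the mice differed from each other. Replicate 2 had the highest Slc7a5, Slc1a5, Slc43a1 and Slc7a1 levels of its group and the lowest Slc7a2, Slc38a2, Slc38a3 and Slc38a4 levels. Over all 12 libraries the highest value was 22.3 times the lowest for Slc1a5, 7.81 times for Slc7a5 and 6.19 times for Slc43a1, against 1.78 times for Slc3a2 and 2.08 times for Slc7a1. Replicate 3 alone against WT, with its spread assumed equal to that of the other groups, gave log2 fold changes of 2.11 for Slc1a5 (adjusted p = 0.276), 1.15 for Slc7a5 (adjusted p = 0.676) and 1.01 for Slc43a1 (adjusted p = 0.858).

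Summed markers of hepatocyte zones, of proliferation and of other cell types were set beside these levels. In bulk liver, fewer cells of a type and less RNA per cell cannot be told apart. The 10 pericentral hepatocyte markers, all detected, summed to 14698 to 38733 CPM in AEG1_MYC livers, 5839 to 8305 in MYC, 7344 to 9902 in AEG1 and 8606 to 12577 CPM in WT livers, and edgeR called 2 of the 10 higher in AEG1_MYC against WT, Slc1a2 and Rhbg, an ammonium carrier (log2 fold change 3.37 ± 0.44, adjusted p = 0.0156, and 0.0923 to 0.141 without any 1 of the WT livers). The 8 proliferation markers summed to 29.4 to 63.2 CPM in AEG1_MYC, 12.02 to 17.0 in MYC, 5.60 to 16.7 in AEG1 and 4.98 to 20.2 CPM in WT livers, with AEG1_MYC replicate 2 highest for both lists. The 8 hepatocyte genes summed to 42422 to 81086 CPM in AEG1_MYC, 75149 to 94090 in MYC, 88051 to 97654 in AEG1 and 111798 to 121794 CPM in WT livers. The part of zonation or proliferation in the levels of Slc7a5, Slc1a5 and Slc43a1 was not tested.

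Summed markers of Kupffer cells ran from 226 to 1185 CPM in AEG1_MYC and 236 to 752 CPM in WT livers, those of endothelium from 418 to 465 CPM and 382 to 490 CPM, and those of bile duct from 40.7 to 83.9 CPM and 60.7 to 103 CPM, and overlapped in each case. The sum of stellate markers lay lower, at 259 to 375 CPM in AEG1_MYC livers and 415 to 564 CPM in WT livers. Of the 10 stellate markers, 8 were lower and 2 higher in AEG1_MYC against WT. Their log2 fold changes ran from -1.25 to 2.04, and edgeR called 0. Lymphocyte markers stayed at 3.60 to 13.0 CPM in all 12 libraries. No marker of these lists was at 0 in every library, and Klrb1c of the lymphocyte list was at 0 in at least 1.

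Of 44 other transporters of the plasma membrane and lysosome, 24 passed the filter. In AEG1_MYC against WT edgeR called 1, Slc1a2, beside 0.263% of all genes. The median log2 fold change of the 24 was 0.04, with 13 positive and 11 negative. Of the 24, 6 had an unadjusted p under 0.05, beside 17.2% of all genes. DESeq2 called 3 of the 44, beside 4.37% of the genes it tested. Slc1a2 encodes a glutamate importer that mouse liver makes in pericentral hepatocytes, and it belongs to the pericentral marker list above. It stood at 1185, 2292 and 742 CPM in AEG1_MYC livers, 88.0, 87.6 and 98.1 CPM in MYC, 119.8, 105.7 and 149.9 CPM in AEG1, and 302, 114 and 138 CPM in WT livers. All 3 AEG1_MYC livers lay far above the other 9. Slc1a2 rose in AEG1_MYC livers by a log2 fold change of 2.93 ± 0.45 against WT (edgeR adjusted p = 0.0334), 3.95 ± 0.47 against MYC (adjusted p = 0.0103) and 3.49 ± 0.46 relative to AEG1 livers (adjusted p = 0.0153). The call against WT was lost in 9 of the 12 fits that left out 1 library, with adjusted p of 0.0515 to 0.195, and held without WT replicate 1 or AEG1_MYC replicate 1 or 3. The call against MYC was lost without any 1 of the MYC livers (0.0808 to 0.111), and the call against AEG1 without any 1 of the AEG1 livers (0.0507 to 0.138).

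Slc16a10, a carrier of aromatic amino acids, stood at 205, 461 and 206 CPM in AEG1_MYC, 106, 128.5 and 102 CPM in MYC, 125, 121 and 125 CPM in AEG1, and 166, 87.4 and 112 CPM in WT livers. Its AEG1_MYC livers did not overlap the rest, with a log2 fold change of 1.25 ± 0.32 against WT (edgeR adjusted p = 0.123). This difference passed with DESeq2 (1.26, adjusted p = 0.00764) and in edgeR without AEG1_MYC replicate 3 (1.46, adjusted p = 0.0401). It passed in no other alternative, and the lowest value was 0.75. Slc1a4, a neutral amino acid exchanger related to Slc1a5, gave 1.12 ± 0.47 (adjusted p = 0.256), and Slc38a1, a system A relative of Slc38a2, 1.08 ± 0.48 (adjusted p = 0.277). Slc6a6, the taurine carrier, gave -0.23 ± 0.22 (adjusted p = 0.606), and Slc43a2, the closest relative of Slc43a1, 0.14 ± 0.16 (adjusted p = 0.686).

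In the main edgeR fit the genes around amino acid supply showed no call in AEG1_MYC against WT. Of 12 target genes of the amino acid response, 11 were tested, with a median log2 fold change of 0.20, 6 positive and 5 negative, and 4 with an unadjusted p under 0.05. The 12 summed to 563 to 1062 CPM in AEG1_MYC livers, 1014 to 1312 in MYC, 973 to 1376 in AEG1 and 1142 to 1423 CPM in WT livers. Atf4, the transcription factor of that response, gave -0.23 ± 0.24 (adjusted p = 0.635) and Trib3, one of its targets, 1.25 ± 0.51 (adjusted p = 0.248). DESeq2 called Trib3 in AEG1_MYC against AEG1 (2.12, adjusted p = 0.00211) and against MYC (1.77, adjusted p = 0.0195). It also called Trib3 in the interaction (2.64, adjusted p = 0.0321), but not against WT. Asns, asparagine synthetase, gave -1.18 ± 1.06 (adjusted p = 0.583), with 5.70 CPM in WT replicate 1 and at most 1.68 CPM in every other library. Of 19 genes of amino acid sensing by mTORC1, 16 were found by symbol and 15 tested, with a median of 0.05, 9 positive and 6 negative, and 6 with an unadjusted p under 0.05, beside the 17.2% of all genes given above. Of 9 mitochondrial amino acid carriers 7 were tested, with a median of 0.04, 4 positive and 3 negative, and 1 with an unadjusted p under 0.05. Glul, glutamine synthetase of pericentral hepatocytes, stood at 3064, 15863 and 3070 CPM in AEG1_MYC livers, against 1427, 734 and 685 CPM in WT livers, and differed over the 4 genotypes (joint adjusted p = 0.0379). That call was lost in 10 of the 12 fits that left out 1 library (adjusted p of 0.0648 to 0.115) and held without AEG1_MYC replicate 1 or 3. In AEG1_MYC against WT, Glul passed with DESeq2 (2.96, adjusted p = 3.97e-05) and in edgeR without AEG1_MYC replicate 3 (3.34, adjusted p = 0.0224).

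Among the members, Slc38a3 and Slc38a4 varied together across the 12 libraries, with Pearson's r = 0.935 and Spearman's rho = 0.972 on log2 CPM. The permutation p of both was 1e-05, the smallest that 100000 permutations can give, and 0.00036 adjusted over the 36 pairs of members. Without the 2 libraries farthest from the median of Slc38a3, r was 0.935. Slc7a2 and Slc38a3 gave r = 0.776 and rho = 0.790 (permutation p = 0.00383 and 0.00334, adjusted 0.0276 and 0.0279), and 0.766 without the farthest 2. Other pairs passed on rho alone, with adjusted permutation p of 0.0592 to 0.242 on r. They were Slc38a2 with Slc38a3 (rho = 0.860, adjusted p = 0.0113) and with Slc38a4 (0.811, 0.0279). Slc7a2 so paired with Slc38a4 (0.783, adjusted p = 0.0279), and with Slc38a2 and Slc43a1 (0.748 and 0.0309 for both). Pairs among Slc7a5, Slc1a5 and Slc43a1 were not read as a relation, since the AEG1_MYC livers lie apart from the rest for each of them.

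Among 12080 genes with a mean of at least 1 CPM, the genes whose log2 CPM over the 12 libraries was most like that of Slc7a5 were Kif26b (r = 0.978) and Wnk4 (0.975), and for Slc1a5 they were Tctn2 (0.953) and Ptp4a3 (0.949). For Slc43a1 they were Ccdc34 (0.918) and Slc35b2 (0.916), for Slc3a2 Noxo1 (0.879) and Crls1 (0.856), and for Slc7a1 Kctd10 (0.894) and Nhsl2 (0.870). For Slc7a2 they were Cyth1 (0.961) and Upp2 (0.941), and for Slc38a2 Zfp276 (0.954) and Pank3 (0.930). Slc38a3 was most like Gnat1 (0.973) and Fam172a (0.964), and Slc38a4 most like Gnat1 (0.974) and Cd247 (0.963). Gnat1 lies 4943 bases upstream of Slc38a3 on the same strand (chr9:107674474-107679712, GRCm38). These values describe the libraries, which share genotypes and depth, and for Slc7a5, Slc1a5 and Slc43a1 they include AEG1_MYC livers that lie apart from the rest.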

How the data were processed

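The files deposited by the authors hold raw counts of reads for each gene, 1 file a library. The submitters' processing notes name CASAVA 1.8.2, TopHat2 2.0.7, HTSeq and the mouse build mm9. The HTSeq version, annotation and use of strand are not given in the sources used here. Per the labels' protocols, a Qiagen miRNeasy kit gave the RNA and an Illumina TruSeq RNA kit the libraries. Reads with no feature were 11.5% to 15.5% of uniquely aligned reads and ambiguous reads 0.634% to 0.746%. Neither entered library sizes or tests.

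Among 22609 genes, edgeR's filterByExpr kept 13684, and 4439 were at 0 in every library. In R 4.3.3 with edgeR 4.0.16, libraries were scaled by TMM (factors 0.914 to 1.19), 1 coefficient per genotype was fitted over all 12 libraries, and 10 contrasts were tested by quasi-likelihood (glmQLFit with the robust option, then glmQLFTest, two-sided) with Benjamini-Hochberg adjustment over all genes tested. Scripts were tested on simulated data. Each SE is the absolute log2 fold change over the square root of its F value. CPM per kb used the exon union of GENCODE M21 on GRCm38, from which the gene positions also come. Promoter windows are RefSeq's. No replicate pair agreed within sampling noise (mean chi-square per gene 35.8 to 364), so none was counted as 1 sample. Replicate numbers follow accession order and only name a mouse.

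The 9 members and the other gene lists were chosen with earlier results of these data known, and no list was tested as a set. All members are named, and of the other lists the genes called in a comparison plus a set named in the design. For each member the 2 genes most like it are named. Alternatives were RLE scaling, no filter on low counts, DESeq2 1.42.0, the compared libraries alone, leaving out each library in turn, and leaving out AEG1_MYC replicates 1 and 2 together.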

Additional observations from a re-analysis of the deposited data

How the results depend on the processing

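Over the alternatives, 1485 values of single members were recomputed: 1465 stayed on the same side of the threshold and 20 passed under the alternative only. The main fit called 0 members, so no call could be lost, and none of the 20 changed sign. The 1485 values leave out DESeq2's joint test, which gives no F value. DESeq2 called 3 members in AEG1_MYC against AEG1, 2 in AEG1_MYC against MYC, 2 in AEG1_MYC against WT, 2 in the joint test, 1 in the interaction and 1 in c-Myc carriers against the rest, where edgeR called 0. Without the filter on low counts the joint test called 1, Slc7a5 (adjusted p = 0.0448), beside 72 of 18170 genes. Leaving out 1 library gave 0 to 2 called members against AEG1, 0 to 1 against MYC, 0 to 2 against WT, 0 to 2 in the joint test and 0 to 1 in c-Myc carriers. All those calls came without AEG1_MYC replicate 3 or replicate 1, and the cause was not tested. Without replicate 3 edgeR called 630 of 13891 genes against AEG1, 450 against MYC, 292 in the joint test and 138 in c-Myc carriers. Without replicate 1 it called 40 of 13912 genes against WT and 79 in the joint test. Over all genes, AEG1_MYC against WT gave 36 calls, 653 with DESeq2, 2 with the compared libraries only, 18 without AEG1_MYC replicate 2, 687 without replicate 3 and 4 without replicates 1 and 2 together. DESeq2 called 712 genes against AEG1 (edgeR 44), 445 against MYC (28), 146 in the interaction (3), 296 in c-Myc carriers (15), 89 in AEG-1 carriers (7) and 747 in the joint test (71). No paired analysis was possible because the labels give no replicate number that genotypes share. With 3 mice a group the interval of Slc7a2 spans -0.62 to 1.83, and Slc1a5 in WT rests on 26 to 41 reads.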

Other observations

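Each mouse's title holds a number whose meaning the labels do not give. Within each of the 4 genotypes, the mouse with the highest number (94 in AEG1_MYC, 87 in MYC, 120 in AEG1 and 93 in WT) had the highest Slc38a3 and the highest Slc38a4 level of its group. The same held in 3 of 4 genotypes for Slc7a2, Slc1a5 and Slc43a1, in 2 of 4 for Slc7a5, Slc7a1 and Slc38a2, and in 1 of 4 for Slc3a2. This was noticed in the data and was not tested.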
